A study of Mus musculus with 17 samples.

Results

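The genes examined here are the chemokine genes that draw eosinophils and monocytes into tissue, together with the receptors CCR2 and CCR3: Ccl11 and Ccl24 (eotaxins), Ccl2, Ccl7, Ccl8 and Ccl12 (monocyte chemoattractants), Ccl6 and Ccl9 (myeloid chemokines of rodents), Ccr3 and Ccr2. They form a list of named genes, drawn up with earlier results of these data known, and all 10 were among the 19751 genes measured by an array probe set that carries a single gene symbol. Messenger RNA was measured in whole lung of 17 Balb/c mice, each on its own Affymetrix Mouse Gene 1.0 ST array. Anti-RGMb mice (6) were sensitized and challenged with ovalbumin (OVA) and given a monoclonal antibody to RGMb, which is a co-receptor of bone morphogenetic proteins. Isotype mice (5) had the same ovalbumin exposure with an isotype antibody, and saline mice (6) had saline at both steps. No antibody is given in the labels for the saline mice, and no group had anti-RGMb without ovalbumin. Lungs were taken at a single time point in 2 replicate sets, called experiment 1 and experiment 2 here. Experiment 1 held 3 mice of each group, named 1, 2 and 3, and experiment 2 held 3 anti-RGMb, 2 isotype and 3 saline mice, named 1-2, 2-2 and 3-2. Age, sex and antibody dose are not given in the sources used here.

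Chemokines are small secreted proteins that bind receptors coupled to G proteins and steer white blood cells along their gradient. CCR3 is the main chemokine receptor of eosinophils and is bound by the eotaxins, while CCR2 brings monocytes out of bone marrow into inflamed tissue and is bound by the products of Ccl2, Ccl7 and, in mice, Ccl12. In allergic airways the eotaxins are induced by interleukin-4 and interleukin-13 acting through STAT6, whereas Ccl2 and Ccl7 also respond to tumour necrosis factor and interleukin-1 through NF-kB.

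In the RefSeq gene order Ccl2, Ccl7, Ccl11, Ccl12 and Ccl8 are consecutive protein-coding genes on chromosome 11. Ccl9 and Ccl6 neighbour each other elsewhere on that chromosome, Ccr3 and Ccr2 neighbour each other on chromosome 9, and Ccl24 lies on chromosome 5 next to Ccl26. Promoter sequences of 6 members (Ccl8, Ccl12, Ccl6, Ccl9, Ccr3 and Ccr2) were matched in RefSeq (GRCm38.p6). The 4 below are the 250 bases before the start site, 5′ to 3′ on the gene's strand. Ccl8 and Ccl12 are shown because they are neighbours whose transcripts changed by very different amounts, and Ccl9 and Ccr3 because they hold motif matches, which are in capitals. Their positions are chr11:82114935-82115184 on the plus strand (Ccl8), chr11:82101595-82101844 on the plus strand (Ccl12), chr11:83578637-83578886 on the minus strand (Ccl9) and chr9:124021721-124021970 on the plus strand (Ccr3).
Ccl8: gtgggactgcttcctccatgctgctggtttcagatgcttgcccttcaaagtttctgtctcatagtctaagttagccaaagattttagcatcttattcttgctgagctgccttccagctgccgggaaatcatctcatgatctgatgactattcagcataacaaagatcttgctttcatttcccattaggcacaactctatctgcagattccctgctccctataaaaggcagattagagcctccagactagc
Ccl12: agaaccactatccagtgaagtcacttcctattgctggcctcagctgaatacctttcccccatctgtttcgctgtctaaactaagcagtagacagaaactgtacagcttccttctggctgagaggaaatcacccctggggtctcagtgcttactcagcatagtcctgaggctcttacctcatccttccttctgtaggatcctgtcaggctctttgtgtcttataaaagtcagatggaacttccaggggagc
Ccl9: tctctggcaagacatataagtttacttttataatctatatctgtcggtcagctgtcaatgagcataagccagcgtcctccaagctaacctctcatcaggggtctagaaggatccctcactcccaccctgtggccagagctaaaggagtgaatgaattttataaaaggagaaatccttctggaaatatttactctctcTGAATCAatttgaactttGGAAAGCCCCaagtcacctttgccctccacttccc
Ccr3: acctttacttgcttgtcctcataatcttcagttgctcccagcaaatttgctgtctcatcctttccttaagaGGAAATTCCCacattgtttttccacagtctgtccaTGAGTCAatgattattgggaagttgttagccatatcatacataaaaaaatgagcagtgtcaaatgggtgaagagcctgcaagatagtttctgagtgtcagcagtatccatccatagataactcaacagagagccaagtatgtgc

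Searched on both strands were TTCNNNNGAA (the spacing that STAT6 prefers), TTCNNNGAA (the spacing of other STAT proteins), the NF-kB consensus and the AP-1 motif TGANTCA. The Ccl9 promoter held an NF-kB match, GGAAAGCCCC, with its first base at -35 from the start site. It also held a match to the loose AP-1 form, TGAATCA, at -53. In the Ccr3 promoter the NF-kB match, GGAAATTCCC, lay at -179 and the AP-1 match, TGAGTCA, at -144. None of these matches overlapped, and the windows of Ccl8, Ccl12, Ccl6 and Ccr2 held 0 matches. Of 32851 promoter windows of this length, 5.85% held TTCNNNNGAA, 7.02% TTCNNNGAA, 7.25% the NF-kB consensus and 6.75% TGANTCA. In global alignments the Ccl8 and Ccl12 windows shared 145 identical bases over 266 alignment columns (54.5%), the highest of the 15 pairs of member windows, where the next was 49.5% and the lowest 41.9%.

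The deposited intensities were on different scales in the 2 experiments (array medians 120 to 125 in experiment 1 and 362 to 386 in experiment 2). Levels below are therefore log2 units above the mean of the saline mice of the same experiment, and each difference comes from a limma fit across all genes with a term for the experiment, with its standard error after ± and its p adjusted by Benjamini-Hochberg over 19751 genes (called below an adjusted p of 0.05). Within an experiment the lowest correlation between arrays was 0.975 (experiment 1) and 0.968 (experiment 2). The 12 lung epithelium markers had median array percentiles of 99.4 in anti-RGMb, 99.6 in isotype and 99.4 in saline mice. The lowest marker of each group stood at 61.0, 55.6 and 60.1. Markers of the labelled tissue were thus present, and many but not all were bright. Heart muscle markers varied between mice, with a summed intensity, in log2 units above saline, of -1.06 to 0.79 in anti-RGMb, -1.62 to -0.35 in isotype and -0.52 to 0.97 in saline mice, and their part in the results was not tested. Precision is limited by the number of arrays.

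**Figure D1:**
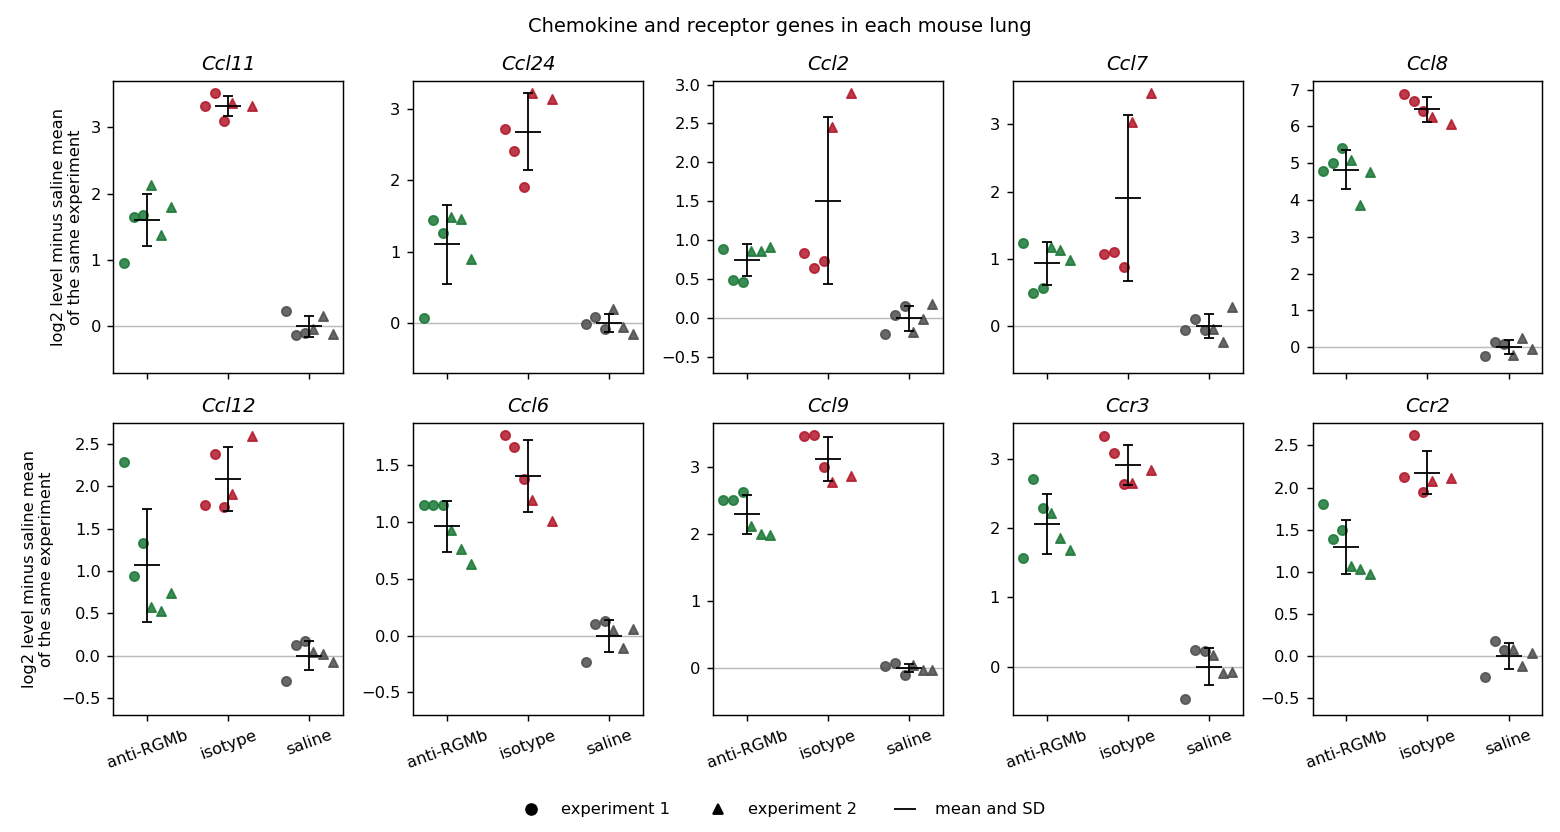
Level of each of the 10 genes in every mouse, in log2 units above the saline mean of the same experiment, with 6 anti-RGMb, 5 isotype and 6 saline mice. Points are mice, with the 2 experiments marked apart, and bars are the mean and SD of each group. Isotype mice lie above all saline mice of their experiment for every gene, and for Ccl2 and Ccl7 the isotype mice of experiment 2 stand well above those of experiment 1.

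All 10 genes were higher in isotype than in saline lungs, and all 10 were lower in anti-RGMb than in isotype lungs. In anti-RGMb lungs 8 of the 10 were still above saline. The share of all genes called higher was 14.6% for isotype minus saline and the share called lower 21%. For anti-RGMb minus isotype 11.1% of all genes were higher and 10% lower, and for anti-RGMb minus saline 4.26% were higher and 2.24% lower. The median difference over the 10 genes was 2.44 for isotype minus saline (all genes -0.04), -0.93 for anti-RGMb minus isotype (all genes 0.03) and 1.20 for anti-RGMb minus saline (all genes -0.01). The first and second of these comparisons share the isotype arrays, so a high isotype value enters both with opposite sign. In bulk lung, fewer cells of a type and less RNA per cell cannot be told apart.

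**Figure D2:**
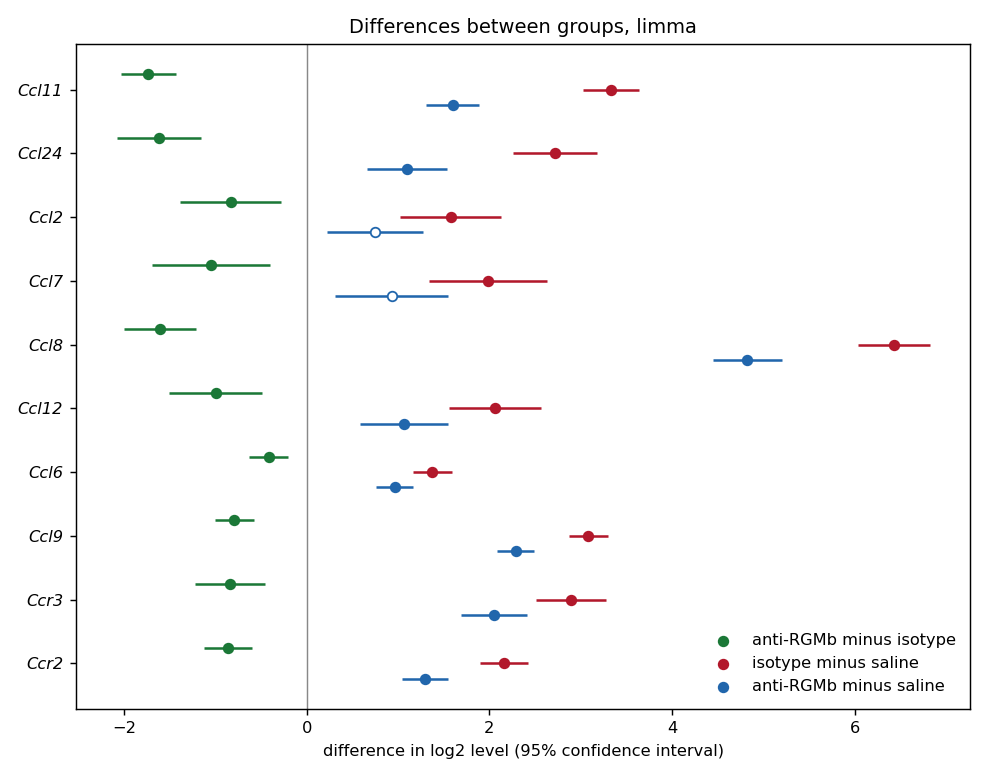
Differences of the 10 genes in log2 units with 95% confidence intervals from limma, for anti-RGMb minus isotype, isotype minus saline and anti-RGMb minus saline, with open circles where the adjusted p did not pass. Isotype minus saline runs from 1.38 (Ccl6) to 6.43 (Ccl8), and anti-RGMb minus isotype from -1.73 (Ccl11) to -0.41 (Ccl6).

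The eotaxin genes, with Ccl8 close behind, had the largest falls with the antibody among the 10 with both experiments together. In experiment 2 alone the largest was that of Ccl7. Ccl11, which encodes eotaxin-1 and is made by epithelium, fibroblasts and smooth muscle, stood at 0.96 (lowest), 1.66 (median) and 2.13 (highest) in anti-RGMb mice, at 3.31, 3.51, 3.09, 3.36 and 3.32 in isotype mice and at -0.13, -0.07 and 0.23 in saline mice. The 3 groups did not overlap. Ccl11 was lower by 1.73 log2 units in anti-RGMb than in isotype mice (-1.73 ± 0.14, adjusted p = 1.7e-06, a 3.32-fold lower level) and was the 11th largest fall of all genes. It was higher by 3.33 ± 0.14 in isotype than in saline mice (10.1-fold, adjusted p = 2.6e-11) and by 1.60 ± 0.14 in anti-RGMb than in saline mice (adjusted p = 6.6e-07). The fall with the antibody was -1.88 ± 0.19 in experiment 1 and -1.57 ± 0.22 in experiment 2.

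Ccl24, which encodes eotaxin-2 and is made largely by macrophages, stood at 0.07, 1.35 and 1.49 (lowest, median and highest) in anti-RGMb mice, at 2.72, 2.41, 1.91, 3.22 and 3.14 in isotype mice and at -0.15, -0.03 and 0.20 in saline mice. The lowest anti-RGMb value was that of mouse 1, which lay within the saline range, while the other 5 lay between 0.89 and 1.49. Ccl24 was lower in anti-RGMb than in isotype mice (-1.62 ± 0.22, adjusted p = 5.9e-05, a 3.07-fold lower level). It was 6.58-fold higher in isotype than in saline mice (2.72 ± 0.22, adjusted p = 3.2e-08) and higher in anti-RGMb than in saline mice (1.10 ± 0.21, adjusted p = 0.00265). Within experiments the last difference was 0.92 ± 0.28 in experiment 1 (adjusted p = 0.0948) and 1.28 ± 0.28 in experiment 2 (adjusted p = 0.0173).

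Ccl8 had the largest rise of the 10 genes. In mice its product acts on CCR8, a receptor of type 2 helper T cells. Ccl8 stood at 3.87, 4.90 and 5.41 (lowest, median and highest) in anti-RGMb mice, at 6.88, 6.69, 6.41, 6.27 and 6.06 in isotype mice and at -0.23, 0.02 and 0.25 in saline mice. The groups were fully separate. Isotype minus saline was 6.43 ± 0.19 (86.2-fold, adjusted p = 1.3e-13), the 2nd largest rise of all genes. Saline mice had Ccl8 at array percentiles 15.7 to 22.1 of all genes, so the size of this rise is uncertain. With anti-RGMb Ccl8 was lower than with isotype (-1.60 ± 0.19, adjusted p = 1.6e-05, a 3.04-fold lower level), by -1.59 ± 0.25 in experiment 1 and -1.58 ± 0.27 in experiment 2. It still stood 4.83 ± 0.18 above saline in anti-RGMb mice (28.4-fold, adjusted p = 1.1e-11), the 3rd largest rise of that comparison.

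Ccl12, the gene next to Ccl8, had smaller differences. It encodes a mouse chemoattractant for monocytes that acts on CCR2. Ccl12 stood at 0.53, 0.84 and 2.29 in anti-RGMb mice (lowest, median and highest), at 1.78, 2.38, 1.76, 1.91 and 2.60 in isotype mice and at -0.30, 0.03 and 0.17 in saline mice. The highest anti-RGMb value was again mouse 1, which lay inside the isotype range, and the other 5 anti-RGMb mice lay below all isotype mice. Ccl12 was lower in anti-RGMb than in isotype mice (-0.99 ± 0.24, adjusted p = 0.00616), with -0.45 ± 0.27 in experiment 1 (adjusted p = 0.435) and -1.64 ± 0.30 in experiment 2 (adjusted p = 0.00106). The difference between experiments did not pass (-1.18 ± 0.40, adjusted p = 0.264). It was higher in isotype than in saline mice (2.06 ± 0.24, adjusted p = 2.6e-06) and in anti-RGMb than in saline mice (1.07 ± 0.23, adjusted p = 0.00713, with 1.52 ± 0.27 in experiment 1 and 0.62 ± 0.27, adjusted p = 0.290, in experiment 2).

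Ccl2 and Ccl7, the genes of the monocyte chemoattractants MCP-1 and MCP-3, behaved differently in the 2 experiments. Ccl2 in anti-RGMb mice stood at 0.89, 0.49 and 0.47 in experiment 1 and at 0.86, 0.86 and 0.91 in experiment 2. In isotype mice it stood at 0.84, 0.64 and 0.74 in experiment 1 and at 2.45 and 2.89 in experiment 2. Saline mice lay between -0.20 and 0.19. The anti-RGMb and isotype mice thus overlapped in experiment 1 and were far apart in experiment 2, where the isotype mice stood much further above saline than those of experiment 1. Anti-RGMb minus isotype for Ccl2 was -0.13 ± 0.13 in experiment 1 (adjusted p = 0.777) and -1.79 ± 0.15 in experiment 2 (adjusted p = 3.4e-06), and these differed (experiment 2 minus experiment 1, -1.67 ± 0.20, adjusted p = 0.00214). Isotype minus saline was 0.74 ± 0.13 in experiment 1 and 2.67 ± 0.15 in experiment 2, which also differed (1.93 ± 0.20, adjusted p = 0.000519).

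Ccl7 had the same pattern. It stood at 1.24, 0.49 and 0.56 in experiment 1 and at 1.18, 1.13 and 0.98 in experiment 2 in anti-RGMb mice, at 1.07, 1.10 and 0.88 in experiment 1 and at 3.03 and 3.46 in experiment 2 in isotype mice, and between -0.24 and 0.28 in saline mice. The isotype mice of experiment 2 again stood apart. Anti-RGMb minus isotype was -0.25 ± 0.17 in experiment 1 (adjusted p = 0.544) and -2.15 ± 0.19 in experiment 2 (adjusted p = 5.1e-06), and the experiments differed (-1.90 ± 0.26, adjusted p = 0.00632). Isotype minus saline was 1.01 ± 0.17 in experiment 1 and 3.24 ± 0.19 in experiment 2 (difference between experiments 2.23 ± 0.26, adjusted p = 0.000575).

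The difference between experiments passed for 2 of the 10 genes in isotype minus saline (0.668% of all genes), for the same 2 in anti-RGMb minus isotype (0.471% of all genes) and for 0 in anti-RGMb minus saline (0% of all genes by limma, with 598 genes at an unadjusted p under 0.05). The isotype values do not enter the size of the last difference, but its spread was estimated with the isotype arrays included. With both experiments together, Ccl2 was lower in anti-RGMb than in isotype mice by -0.83 ± 0.26 (adjusted p = 0.0303) and Ccl7 by -1.05 ± 0.31 (adjusted p = 0.0196). Ccl2 did not pass without isotype mouse 1-2 (-0.67, adjusted p = 0.104) or 2-2 (-0.53, adjusted p = 0.120) and also not without mouse 1-2, 2-2 or 3-2 of the anti-RGMb group (adjusted p = 0.0597, 0.0605 and 0.0545), over a range of adjusted p from 0.0140 to 0.120 in the 17 fits that each leave out a mouse. Ccl7 did not pass without isotype mouse 1-2 (-0.85, adjusted p = 0.0753) or 2-2 (-0.72, adjusted p = 0.0795), over a range from 0.00734 to 0.0795. With array quality weights neither passed (Ccl2 -0.43, adjusted p = 0.171, and Ccl7 -0.62, adjusted p = 0.0832). These calls therefore rest on experiment 2.

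Against saline, anti-RGMb mice had Ccl2 higher by 0.75 ± 0.25 (95% interval 0.22 to 1.27, adjusted p = 0.0879) and Ccl7 by 0.93 ± 0.29 (0.32 to 1.55, adjusted p = 0.0682), which did not pass. In that fit the spread is shared with the isotype mice. All anti-RGMb mice lay above all saline mice of their experiment for both genes, and within experiments both passed (Ccl2 0.62 ± 0.13, adjusted p = 0.0146, and 0.88 ± 0.13, adjusted p = 0.00122, and Ccl7 0.77 ± 0.17, adjusted p = 0.0186, and 1.10 ± 0.17, adjusted p = 0.00158). Both also passed in a fit of the anti-RGMb and saline mice alone (adjusted p = 0.000161 for Ccl2 and 0.000380 for Ccl7). Isotype minus saline passed for both with the experiments together (Ccl2 1.58 ± 0.26, adjusted p = 0.000108, and Ccl7 1.98 ± 0.31, adjusted p = 5.3e-05).

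**Figure D3:**
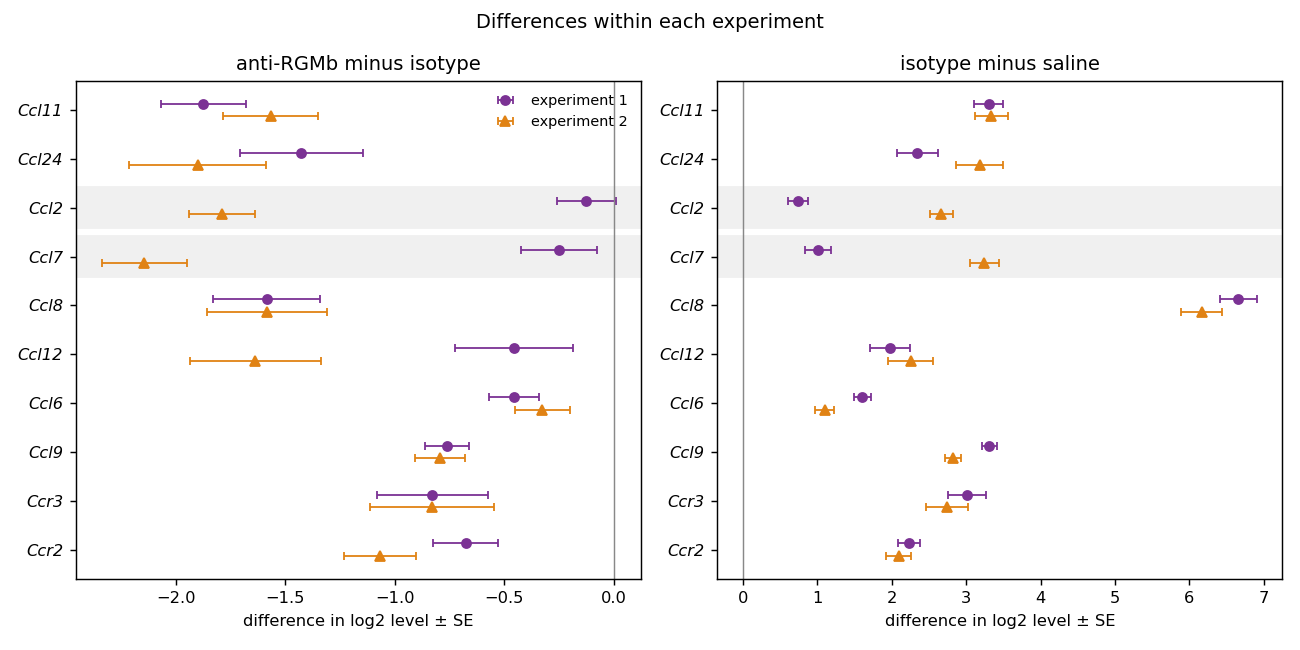
Difference of each gene within experiment 1 and within experiment 2, in log2 units with standard errors, for anti-RGMb minus isotype and isotype minus saline, with grey bands on the genes whose experiments differed. For anti-RGMb minus isotype, Ccl2 is at -0.13 in experiment 1 and -1.79 in experiment 2 and Ccl7 at -0.25 and -2.15, while Ccl8 is at -1.59 and -1.58.

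Ccl9 and Ccl6 encode chemokines that act on CCR1 in mice and are made by macrophages and other myeloid cells. Ccl9 stood at 1.98, 2.31 and 2.63 in anti-RGMb mice (lowest, median and highest), at 3.46, 3.47, 3.00, 2.78 and 2.87 in isotype mice and at -0.10, 0.01 and 0.07 in saline mice. No anti-RGMb mouse reached an isotype mouse. Ccl9 was lower in anti-RGMb than in isotype mice (-0.79 ± 0.10, adjusted p = 3.6e-05), with -0.76 ± 0.10 in experiment 1 and -0.79 ± 0.11 in experiment 2. It was 8.47-fold higher in isotype than in saline mice (3.08 ± 0.10, adjusted p = 8.8e-13) and higher in anti-RGMb than in saline mice (2.29 ± 0.10, adjusted p = 5.7e-11).

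Ccl6 had the smallest difference of the 10 in isotype minus saline and in anti-RGMb minus isotype with both experiments together. It stood at 0.63, 1.04 and 1.15 in anti-RGMb mice (lowest, median and highest), at 1.77, 1.66, 1.38, 1.19 and 1.01 in isotype mice and at -0.23, 0.06 and 0.13 in saline mice. Across experiments the anti-RGMb and isotype ranges overlapped, and within each experiment they did not. The probe set was already bright in saline mice (array percentiles 94.6 to 97.3), against 99.0 or more in both ovalbumin groups. Ccl6 was lower in anti-RGMb than in isotype mice (-0.41 ± 0.10, adjusted p = 0.0068), with -0.46 ± 0.11 in experiment 1 (adjusted p = 0.0247) and -0.33 ± 0.13 in experiment 2 (adjusted p = 0.0849). Isotype minus saline was 1.38 ± 0.10 (adjusted p = 1.1e-08) and anti-RGMb minus saline 0.96 ± 0.10 (adjusted p = 3.9e-06).

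Both receptor genes had differences of the same sign as the ligand genes. Ccr3, the eotaxin receptor of eosinophils, stood at 1.57, 2.04 and 2.71 in anti-RGMb mice (lowest, median and highest), at 3.32, 3.08, 2.64, 2.65 and 2.84 in isotype mice and at -0.46, 0.04 and 0.24 in saline mice. The ovalbumin groups overlapped in experiment 1, where anti-RGMb mouse 2 (2.71) lay above isotype mouse 3 (2.64), and not in experiment 2. Saline mice had Ccr3 at array percentiles 21.9 to 39.1, so the size of its rise is uncertain as well. Ccr3 was lower in anti-RGMb than in isotype mice (-0.84 ± 0.18, adjusted p = 0.00276). Within experiments the same size did not pass (-0.83 ± 0.25, adjusted p = 0.0657, in experiment 1 and -0.83 ± 0.28, adjusted p = 0.0515, in experiment 2). It was 7.41-fold higher in isotype than in saline mice (2.89 ± 0.18, adjusted p = 1.6e-09) and higher in anti-RGMb than in saline mice (2.05 ± 0.17, adjusted p = 5.4e-07).

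Ccr2, the receptor that marks inflammatory monocytes and some macrophages and T cells, stood at 0.98, 1.23 and 1.80 in anti-RGMb mice (lowest, median and highest), at 2.13, 2.62, 1.95, 2.08 and 2.11 in isotype mice and at -0.25, 0.05 and 0.18 in saline mice. The groups did not overlap, and anti-RGMb mouse 1 was the highest of its group. Ccr2 was lower in anti-RGMb than in isotype mice (-0.86 ± 0.12, adjusted p = 0.000101), with -0.68 ± 0.15 in experiment 1 (adjusted p = 0.0127) and -1.07 ± 0.17 in experiment 2 (adjusted p = 0.000278). It was 4.46-fold higher in isotype than in saline mice (2.16 ± 0.12, adjusted p = 6.5e-10) and higher in anti-RGMb than in saline mice (1.29 ± 0.12, adjusted p = 1.4e-06).

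Counting calls within experiments, 6 of the 10 genes were lower with anti-RGMb than with isotype in experiment 1 (3.13% of all genes) and 8 in experiment 2 (11.3% of all genes). The genes not past in experiment 1 were Ccl2, Ccl7, Ccl12 and Ccr3, and those not past in experiment 2 were Ccl6 and Ccr3. All isotype mice lay above all saline mice of their experiment for the 10 genes, as they did for 14.3% of all genes in experiment 1 and 20% in experiment 2. All anti-RGMb mice lay above all saline mice for 9 of the 10 genes in experiment 1 (8.56% of all genes), Ccl24 being the exception, and for 10 in experiment 2 (8.07%). All anti-RGMb mice lay below all isotype mice for 6 of the 10 genes in experiment 1 (10.5% of all genes) and for 10 in experiment 2 (18.8%).

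The part of the rise over saline that was left with the antibody was estimated for each gene, and differences between genes were not tested. As a share of the isotype rise on the log2 scale, with 95% intervals, 75.1% (69.7 to 80.6) of the Ccl8 rise, 74.3% (68.3 to 80.6) of the Ccl9 rise, 71.0% (59.8 to 83.2) of the Ccr3 rise and 70.0% (56.8 to 84.4) of the Ccl6 rise were left. The share was 60.0% (49.8 to 70.7) for Ccr2, 51.8% (30.9 to 73.6) for Ccl12, 48.0% (40.4 to 55.7) for Ccl11 and 40.5% (25.8 to 54.8) for Ccl24. Ccl2 with 47.4% (16.4 to 79.0) and Ccl7 with 47.0% (18.3 to 76.1) had the widest intervals. These 2 shares pool experiments whose isotype rise differed. For Ccl2 the rise was 0.74 in isotype and 0.62 in anti-RGMb mice in experiment 1, and 2.67 and 0.88 in experiment 2. For Ccl7 these were 1.01 and 0.77, and 3.24 and 1.10. For Ccl12, where the difference between experiments did not pass, they were 1.97 and 1.52, and 2.25 and 0.62. A share within each experiment was not estimated. The intervals treat each gene alone. Those of Ccl8, Ccl12 and Ccr3 do not cover the uncertain size of their rises over dim saline values, given above.

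**Figure D4:**
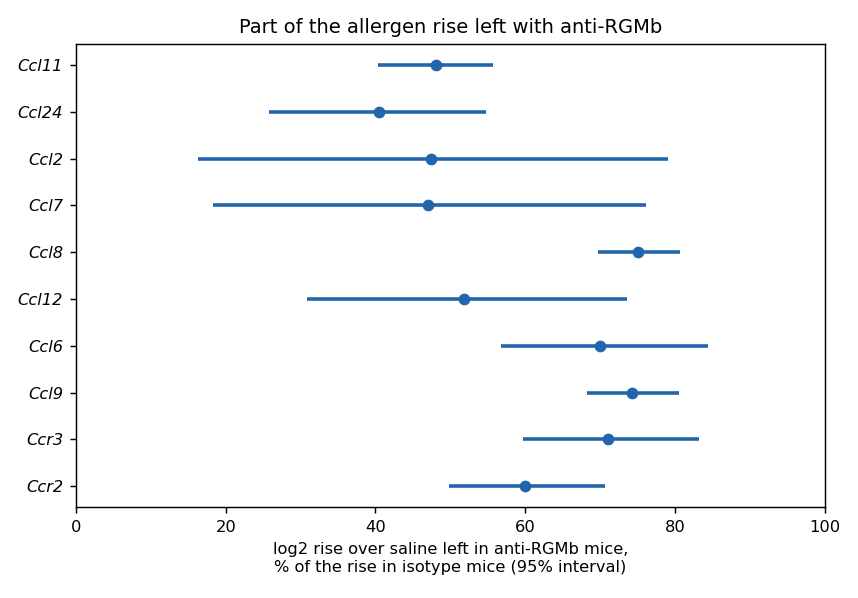
Share of the rise over saline, on the log2 scale, left in anti-RGMb mice as a percentage of the rise in isotype mice, with 95% intervals, one row per gene. Estimates run from 40.5% (Ccl24) to 75.1% (Ccl8), and Ccl2 and Ccl7 have the widest intervals. The shares of Ccl2 and Ccl7 pool experiments whose isotype rise differed. Saline levels of Ccl8, Ccl12, Ccr3, Ccl24 and Ccl7 were dim.

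Variation among mice of the same group was compared between members. After group and experiment means were taken away, values of the 17 mice gave a correlation for each of the 45 pairs of members (median r 0.24, 30 above 0), described here without a test, since all pairs share the same mice and arrays. Ccl24 and its receptor gene Ccr3 had the highest (r = 0.83, rho = 0.78, and r = 0.69 without anti-RGMb mouse 1). Ccl12 and its receptor gene Ccr2 followed (r = 0.75, rho = 0.76, and r = 0.71 without anti-RGMb mouse 1). Without the 2 mice farthest from the median of the first-named gene these were 0.67 and 0.71. Next were Ccl7 with Ccl12 (r = 0.72, rho = 0.63, and 0.40 without anti-RGMb mouse 1), Ccl2 with Ccl7 (r = 0.71, rho = 0.61, and 0.55 without that mouse) and Ccl11 with Ccl8 (r = 0.68, rho = 0.60, and 0.50 without anti-RGMb mouse 2-2). Ccl6 with Ccr3, not named above as ligand and receptor, came after these (r = 0.63, rho = 0.64, and 0.50 without saline mouse 1). Of the other pairs of a ligand and its receptor named above, Ccl7 with Ccr2 gave r = 0.59 (0.45 without anti-RGMb mouse 1), Ccl11 with Ccr3 0.43 (0.05) and Ccl2 with Ccr2 0.27 (0.04). Ccl7 with Ccr3 gave r = -0.27 (0.36 without anti-RGMb mouse 1).

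The lowest correlations joined an eotaxin gene to a monocyte chemoattractant gene and lay nearer to 0 or above it without anti-RGMb mouse 1. Ccl24 with Ccl12 gave r = -0.62 and -0.09 without anti-RGMb mouse 1. Ccl11 with Ccl2 gave -0.55 and -0.32 without it (rho = -0.56, and r = -0.50 without the 2 mice farthest from the Ccl11 median), Ccl24 with Ccl2 -0.53 and -0.19 (rho = -0.53, and r = -0.28 without the 2 mice farthest from the Ccl24 median), Ccl11 with Ccl7 -0.52 and -0.10, and Ccl24 with Ccl7 -0.47 and 0.24. In that mouse Ccl24 (0.07) and Ccl11 (0.96) were the lowest of the anti-RGMb group, while Ccl12 (2.29), Ccl7 (1.24) and Ccr2 (1.80) were the highest. It therefore paired a saline-like eotaxin-2 level with an isotype-like Ccl12 level.

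**Figure D5:**
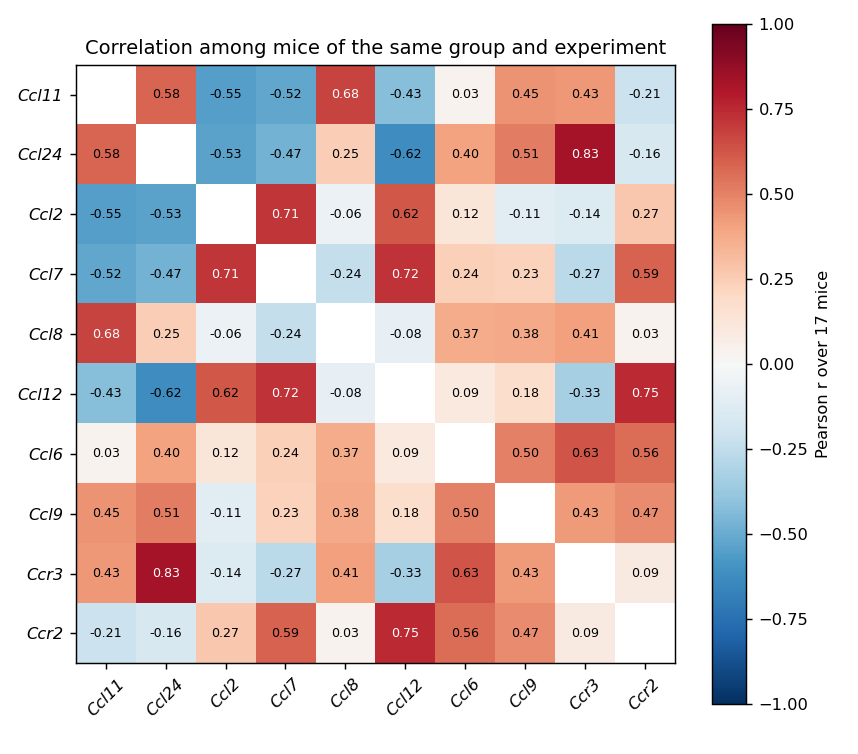
Pearson correlation between each pair of the 10 genes over 17 mice, after the mean of each group in each experiment was taken away. Ccl24 with Ccr3 (0.83) and Ccl12 with Ccr2 (0.75) are the highest, and Ccl24 with Ccl12 (-0.62) the lowest.

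Over the 17 arrays with only the experiment mean taken away, so that group differences remain, other genes followed each member closely. Highest in Pearson r were Pla2g7 (0.989) and F10 (0.988) with Ccl11, Cd300lb (0.978) and Pdcd1lg2 (0.976) with Ccl24, and Fcgr2b (0.992) and Clec10a (0.991) with Ccl8. Ccl2 was followed by Rab37 (0.977) and Acap1 (0.973), and Ccl7 by Acap1 (0.979) and Ptk2b (0.968). Ccl12 was followed by Aif1 (0.988) and Ifi202b (0.988), Ccl6 by C1qb (0.989) and Folr2 (0.981), and Ccl9 by Cfp (0.996) and C1qb (0.992). For the receptors these were Mmp12 (0.989) and Folr2 (0.984) with Ccr3, and Apobec1 (0.996) and Arpc1b (0.991) with Ccr2.

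Of 11 other CC chemokine ligand genes measured, 0 were higher and 4 lower in anti-RGMb than in isotype mice, and 6 were higher and 1 lower in isotype than in saline mice (median differences -0.17 and 0.32). Ccl22 and Ccl17, ligands of CCR4 on type 2 T cells, were lower with anti-RGMb by -0.80 ± 0.09 (adjusted p = 1.6e-05) and -0.45 ± 0.12 (adjusted p = 0.00946). Ccl3, a ligand of CCR1, was lower by -1.08 ± 0.21 (adjusted p = 0.000987). Ccl4, a chemokine of macrophages and lymphocytes, was lower by -0.32 ± 0.11 (adjusted p = 0.0376). In anti-RGMb against saline mice 3 of the 11 were higher (Ccl17, Ccl22 and Ccl3) and 0 lower.

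Other chemokine receptors and scavenger receptors went both ways. Of 15, 4 were higher and 6 lower in anti-RGMb than in isotype mice, 6 were higher and 4 lower in isotype than in saline mice, and 2 were higher and 1 lower in anti-RGMb than in saline mice. Ccr1, the receptor for Ccl6 and Ccl9, was lower with anti-RGMb (-0.99 ± 0.16, adjusted p = 0.00024) and higher in isotype than in saline mice (2.16 ± 0.16, adjusted p = 1.0e-08). Ccr8, the receptor for mouse Ccl8, was lower with anti-RGMb (-0.60 ± 0.13, adjusted p = 0.00229) and higher in isotype than in saline mice (0.91 ± 0.13, adjusted p = 1.7e-05). Ccrl2, a chemerin-binding receptor that does not signal, was higher with anti-RGMb (0.48 ± 0.10, adjusted p = 0.00191).

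Among 17 genes of cytokines and factors that induce these chemokines, 0 were higher and 7 lower in anti-RGMb than in isotype mice (median -0.24). In isotype against saline mice 8 were higher and 2 lower (median 0.21), and in anti-RGMb against saline mice 1 was higher and 0 lower. Il33, an alarmin, was lower with anti-RGMb by -0.99 ± 0.10 (adjusted p = 5.3e-06). Il13, which induces both eotaxins, was lower by -0.80 ± 0.13 (adjusted p = 0.000207), Tgfb1 by -0.28 ± 0.06 (adjusted p = 0.00167) and Tnf by -0.44 ± 0.12 (adjusted p = 0.0135). Of 18 genes of signalling below chemokine receptors, 2 were higher and 9 lower in anti-RGMb than in isotype mice, and 9 were higher and 5 lower in isotype than in saline mice. In anti-RGMb against saline mice 7 of them were higher and 1 lower. Those lower with anti-RGMb included the leukocyte kinase genes Pik3cg (-0.63 ± 0.08, adjusted p = 2.2e-05) and Pik3r5 (-0.64 ± 0.08, adjusted p = 2.9e-05), which form PI3K-gamma. They also included Dock2 (-0.58 ± 0.07, adjusted p = 2.3e-05), an activator of Rac in migrating leukocytes, and Rgs1 (-0.95 ± 0.16, adjusted p = 0.000297), which damps chemokine receptor signals.

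Markers of the cells that carry the receptors moved mostly in the direction of the members, and their part in the results was not tested. None of the listed markers had an intensity of 0 on any array. Of 14 eosinophil markers, 0 were higher and 9 lower in anti-RGMb than in isotype mice, and 13 were higher and 0 lower in isotype than in saline mice. Their summed intensity, in log2 units above saline, was 1.03 to 1.96 in anti-RGMb, 2.25 to 2.79 in isotype and -0.14 to 0.08 in saline mice. Such sums of intensities mostly follow the brightest genes of a list. Csf2rb (-0.75 ± 0.09, adjusted p = 2.5e-05), Csf2rb2 (-0.85 ± 0.11, adjusted p = 3.1e-05) and Epx (-1.14 ± 0.19, adjusted p = 0.000343), the eosinophil peroxidase gene, were lower with anti-RGMb. The 5 that did not pass were Prg2 (-0.44), Adgre4 (-0.14), Prg3 (0.14), Ltc4s (0.09) and Ptger3 (0.01). Of 17 monocyte and interstitial macrophage markers, 0 were higher and 11 lower in anti-RGMb than in isotype mice, and 15 were higher and 0 lower in isotype than in saline mice. Their summed intensity, in log2 units above saline, was 0.66 to 0.91 in anti-RGMb, 1.12 to 1.50 in isotype and -0.10 to 0.09 in saline mice. Cd163 (-2.02 ± 0.20, adjusted p = 5.0e-06) and Mrc1 (-0.96 ± 0.10, adjusted p = 5.1e-06), scavenger and mannose receptors of macrophages, were lower with anti-RGMb, while the 6 that did not pass included F13a1 (0.26) and Cx3cr1 (0.15).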

How the data were processed

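The deposited values are linear probe set intensities that the authors made by RMA, which corrects background, normalizes arrays and summarizes probes, per the submitters' processing notes. Neither RMA version nor genome build is given in the sources used here. That the scale is linear was judged from the values, and the 2 experiments have different levels. Log2 was taken with no added constant. Of 24679 probe sets, 21354 carry 1 symbol, and for 893 genes with several of these the brightest was kept, leaving 19751 genes, with 1 probe set for each of the 10 members.

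Each gene was fitted with limma 3.58.1 in R 4.3.3 (a mean per group, a term for the experiment, and moderated variances with 4.32 prior degrees of freedom). A further model, in which each group had its own mean in each experiment, gave values within experiments and the difference between them. Tests were 2-sided, with Benjamini-Hochberg adjustment over all genes and a threshold of 0.05. Fieller intervals at 95% were used for shares of a rise. Mice with the same number in different groups were treated as unpaired, the number being read as a name. Their residuals correlated at -0.60 to 0.297, over 0.1 in 3 of 16 pairs. With 2 or 3 mice per group and experiment, these values cannot show whether mice were paired. There were 12 alternative settings and 17 fits that each left out a mouse.

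The members and gene lists were chosen with earlier results of these data known. Named genes were all members, the 2 genes most correlated with each, and up to 4 genes of smallest p per list and comparison. Some listed genes that went the other way or did not pass were also named. Promoter windows and gene order come from RefSeq, where no promoter was used for Ccl2, Ccl7, Ccl11 or Ccl24.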

Additional observations from a re-analysis of the deposited data

Results flagged for a closer look

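The response of Ccl2 and Ccl7 differed between the experiments. Isotype minus saline was larger in experiment 2 than in experiment 1 by 1.93 log2 units for Ccl2 and by 2.23 for Ccl7. Anti-RGMb minus isotype was more negative in experiment 2 by -1.67 for Ccl2 and by -1.90 for Ccl7. Both pairs of values share the 2 isotype mice of experiment 2, and 30 such differences between experiments were tested over the members. Ccr2 in isotype mouse 2 (2.62 log2 units above saline) stood apart from the other isotype mice, which lay between 1.95 and 2.13. Of the 30 groups of mice checked in this way, chance marks about 1 in 20.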

How the results depend on the processing

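Over 29 alternative fits, 813 member differences kept their direction and side of the threshold, 42 fell below it, 12 came past it and none changed sign. Ccl12 was among the dimmest 40% of genes and had no value in that fit. With no replicate block, that is no term for the experiment, the members called were 4 higher for isotype minus saline, 0 lower for anti-RGMb minus isotype and 1 higher for anti-RGMb minus saline, and all genes called were 34 higher and 1 lower, 0 and 0, and 10 and 0. The levels of the experiments then enter the spread. In experiment 1 alone 6 members were lower for anti-RGMb minus isotype, with 661 genes higher and 618 lower (1740 and 2285 for isotype minus saline, and 119 lower for anti-RGMb minus saline). In experiment 2 alone anti-RGMb minus saline gave 524 genes higher and 129 lower.

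The count of genes lower in anti-RGMb than in saline mice (442) was least stable, at 809 with array median centring, 873 with only these groups, 680 without the dimmest 40% of genes and 1244 with array quality weights (1297 higher), and 207 (without saline mouse 1-2) to 654 (without isotype mouse 1-2) when a mouse was left out. Array median centring moved the share of calls that were higher to 50.5%, against 65.6%. With mouse number within experiment as a replicate block it was 233, and anti-RGMb minus isotype did not pass for Ccl2 (-0.80, adjusted p = 0.0887) or Ccl7 (-1.01, adjusted p = 0.0644), while no other member call changed. Over the 17 fits that left out a mouse, the other 8 members kept every call. Ccl2 and Ccl7 came past the threshold for anti-RGMb minus saline without isotype mouse 2-2 (adjusted p = 0.0262 and 0.0229), and with array quality weights (0.0101 and 0.00488). Ccl7 also passed without isotype mouse 3 (adjusted p = 0.04996) and without the dimmest 40% of genes (0.0458). Apart from what each alternative leaves out, the causes were not tested.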

Other observations

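Among other cell types that make or answer these chemokines, called markers went both ways for alveolar macrophages and for mast cells and basophils. For neutrophils and T cells the called markers went only the way of the members. Of 13 alveolar macrophage markers, 1 was higher and 3 lower in anti-RGMb than in isotype mice, and 7 were higher and 3 lower in isotype than in saline mice. Mrc1 is counted here and also among the monocyte and interstitial macrophage markers. Of 12 neutrophil markers, 0 were higher and 4 lower in anti-RGMb than in isotype mice, and 6 were higher and 0 lower in isotype than in saline mice. The 8 that did not pass in anti-RGMb minus isotype were Ltf (-0.58), Ly6g (-0.52), Cxcr2 (-0.20), Mmp9 (-0.20), S100a8 (0.02), Camp (0.15), S100a9 (0.15) and Ngp (0.78). Of 11 mast cell and basophil markers, 2 (Gata2 and Kit) were higher and 1 (Hdc) lower in anti-RGMb than in isotype mice, and 8 were higher and 2 lower in isotype than in saline mice. Of 9 T cell markers, 0 were higher and 5 lower in anti-RGMb than in isotype mice, and 7 were higher and 0 lower in isotype than in saline mice.

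Structural cells, which also make Ccl11, had markers that went mostly the opposite way. Of 11 fibroblast markers, 5 were higher and 2 lower in anti-RGMb than in isotype mice, and 3 were higher and 6 lower in isotype than in saline mice. The transcription factor gene Tcf21 was higher by 0.71 ± 0.11 in anti-RGMb than in isotype mice (adjusted p = 0.000127). The 2 that were lower were the collagen genes Col3a1 (-0.43 ± 0.12, adjusted p = 0.0128) and Col1a1 (-0.40 ± 0.12, adjusted p = 0.0219). Both were higher in isotype than in saline mice (0.77 and 0.61), which is the direction of the members. Of 9 endothelial markers, 7 were higher and 0 lower in anti-RGMb than in isotype mice, and 1 was higher and 8 lower in isotype than in saline mice. Of 12 lung epithelium markers, 7 were higher and 1 lower in anti-RGMb than in isotype mice, and 1 was higher and 8 lower in isotype than in saline mice. Of 10 heart muscle markers, 5 were higher and 0 lower in anti-RGMb than in isotype mice, and 0 were higher and 8 lower in isotype than in saline mice.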
